A study of Mus musculus with 14 samples.

Results

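The OAS and OASL genes Oas1a, Oas2, Oas3, Oasl1 and Oasl2 encode oligoadenylate synthetases and related proteins, which defend cells against RNA viruses, and were measured in mouse microglia. They were taken by name: of the array rows annotated to exactly 1 gene symbol, the brightest row on average was kept for each gene, which gave 5 of 19938 genes. Each member had a single such row, and all 5 averaged above the background level defined below. Their Entrez gene identifiers are 246730 for Oas1a, 246728 for Oas2, 246727 for Oas3, 231655 for Oasl1 and 23962 for Oasl2, and all 5 genes lie on mouse chromosome 5. 1 further row names Oas1a together with a near-identical neighbour and was left out, so the Oas1a values may hold some signal of that neighbour.

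The study compared microglia from mice that had ischaemia/reperfusion (I/R) of the brain with microglia from sham-operated mice, in animals that lack Toll-like receptor 4 and in wild type (WT). Groups were TLR4-/- I/R (3 arrays, replicates B, C and D), TLR4-/- sham (3 arrays, A, B and D), WT I/R (4 arrays, A to D) and WT sham (4 arrays, A to D). All mice were C57BL/6J males aged 12 to 14 weeks. I/R meant a filament block of the middle cerebral artery for 15 min and then 72 h of restored flow, sham mice had surgery under the same isoflurane anaesthesia, and microglia were sorted from the cortex of the operated side. The titles of the I/R arrays carry the abbreviation IPC, which the labels do not explain, and the groups follow the treatment labels. How the knockout was made and which markers gated the sort are details that the sources used here do not state. The labels do not say that arrays came from separate animals, so p-values measure the spread between these arrays, which may be technical.

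Oligoadenylate synthetases sense double-stranded RNA inside the cell and join ATP into short oligoadenylates, which act as an antiviral second messenger. Their genes are classic targets of interferon: the receptor signals through Jak1 and Tyk2 to a transcription factor that contains Stat2 and Irf9 and binds a promoter element called the ISRE. Oas1a, Oas2 and Oas3 are enzymes with increasing numbers of synthetase units. In mice Oasl2 keeps enzyme activity and carries ubiquitin-like domains, whereas Oasl1 is inactive as a synthetase and is known to hold back the translation of Irf7.

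Promoters of 3 members are shown because ISRE sequences are the known link between interferon and this family. RefSeq windows of 300 bases, from 250 bases before to 50 bases after the gene start on build GRCm38.p6, were given for 4 of the 5 members. The ISRE core was searched on both strands as GAAA, any 2 bases and GAAA again. Capitals mark its matches in Oas1a (chr5:120907476-120907775, minus strand) and in Oas3 (chr5:120777610-120777909, minus strand). Oasl2 (chr5:114896684-114896983, plus strand) is shown as the member with the largest change and no match.
Oas1a: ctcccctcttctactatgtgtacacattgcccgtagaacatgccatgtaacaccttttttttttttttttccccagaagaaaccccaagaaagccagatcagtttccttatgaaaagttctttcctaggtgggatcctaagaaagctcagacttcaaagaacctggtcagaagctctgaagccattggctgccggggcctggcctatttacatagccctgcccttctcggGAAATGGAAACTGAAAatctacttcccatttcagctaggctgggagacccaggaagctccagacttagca
Oas3: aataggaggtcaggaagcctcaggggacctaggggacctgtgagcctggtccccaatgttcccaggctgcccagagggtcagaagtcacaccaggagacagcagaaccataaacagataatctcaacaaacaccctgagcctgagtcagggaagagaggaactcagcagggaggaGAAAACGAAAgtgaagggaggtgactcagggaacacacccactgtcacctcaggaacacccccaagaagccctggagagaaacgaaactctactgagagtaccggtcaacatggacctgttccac
Oasl2: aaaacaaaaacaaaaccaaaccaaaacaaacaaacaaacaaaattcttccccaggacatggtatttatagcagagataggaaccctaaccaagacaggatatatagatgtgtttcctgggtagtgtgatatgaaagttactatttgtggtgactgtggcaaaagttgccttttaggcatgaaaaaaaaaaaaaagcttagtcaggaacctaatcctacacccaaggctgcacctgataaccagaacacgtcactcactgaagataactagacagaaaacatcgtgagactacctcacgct
Oas1a held 2 overlapping matches, which run from 20 to 11 and from 14 to 5 bases before the start. Oas3 held 1 match, from 75 to 66 bases before the start. Oasl1 (chr5:114922990-114923289, plus strand) and Oasl2 held none in this window. Of all 32851 promoters in the table, 3.44% held at least 1 match and 0.225% held 2 or more. The core of the GAS element, which the interferon-gamma pathway uses, was searched on both strands as TTC, any 3 bases and GAA, and matched once in Oas1a, from 98 to 90 bases before the start, and in no other member. That core was found in 8.30% of all promoters.

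Values are log2 probe intensities, so a difference of 1 is a doubling. Background was set at 4.67, the level below which 95% of 1027 olfactory receptor genes averaged. Array medians ran from 4.93 to 5.12, and arrays of the same group correlated at 0.981 to 0.993 over all genes. All 4 WT sham arrays correlated best on average with the TLR4-/- sham arrays, and all 3 TLR4-/- I/R arrays with the WT I/R arrays. The Tlr4 transcript itself ranged from 7.62 to 8.40 in TLR4-/- I/R and from 8.15 to 8.47 in TLR4-/- sham, against 8.14 to 8.48 in WT I/R and 8.57 to 8.92 in WT sham. It was not called different between the genotypes after sham (adjusted p = 0.920) or after I/R (adjusted p = 0.634). Whether its row lies in the deleted part is not given, so genotypes stand here as labelled. The 9 measured microglia markers averaged 10.8 to 11.2 in the 4 groups. None of the 8 neutrophil markers was above background on average, although WT I/R array C had their highest mean, 4.55 against 3.45 to 3.77 on the other WT I/R arrays. Markers of T and NK cells, oligodendrocytes and neurons had no call after I/R in either genotype.

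All 5 members were higher after I/R in both genotypes. Oasl2 changed most, 13.6-fold in TLR4-/- and 5.59-fold in WT, and Oas3 had the smallest measured fold, 1.69 in TLR4-/- and 1.44 in WT. The Oas3 mean was 4.59 in WT sham, under the background level, and 4.70 in TLR4-/- sham, just above it. Both Oas3 folds are therefore read against values near the floor. In TLR4-/- microglia 5 of 5 members were called higher, where 5.04% of all genes were. In WT microglia 5 of 5 were called higher, where 6.15% of all genes were. The median change of the members was 1.83 on the log2 scale in TLR4-/- and 1.49 in WT, beside medians of -0.03 and -0.06 over all genes in those genotypes. I/R and sham arrays did not overlap for 5 members in TLR4-/-, where 23.6% of all genes did not, and for 4 members in WT, where 15.6% did not. Calls are from 1 limma model over all 14 arrays at an adjusted p (Benjamini-Hochberg over all 19938 genes) under 0.05. These are sorted cell pools, so more cells with the transcript and more transcript per cell cannot be told apart.

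**Figure D1:**
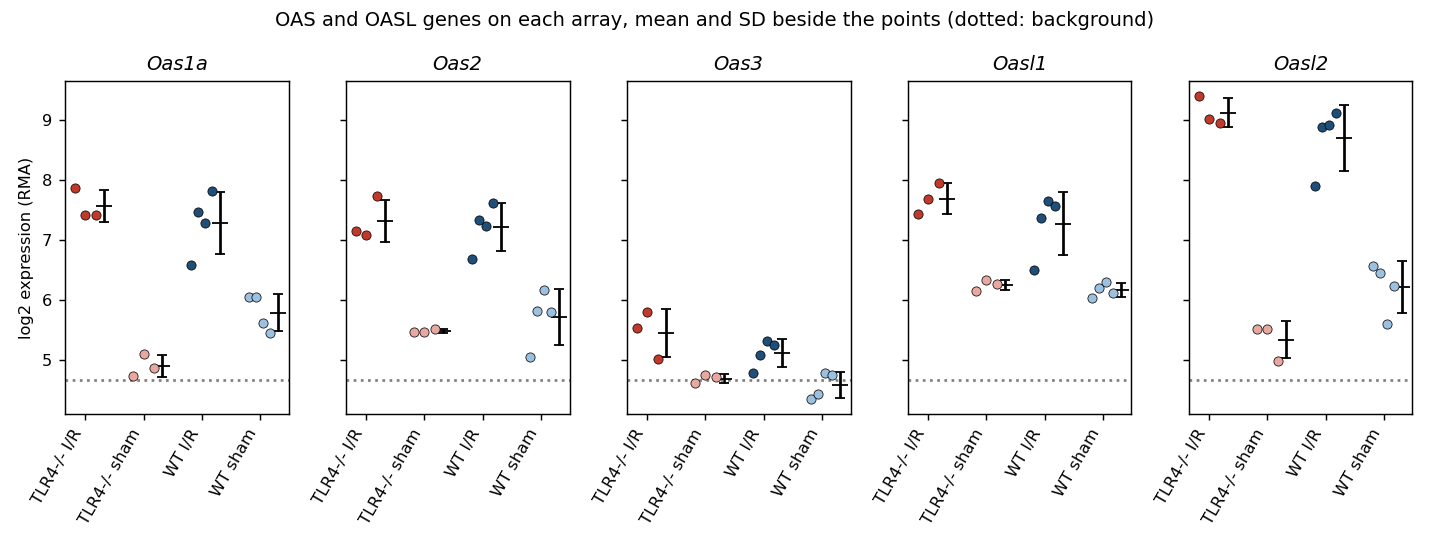
Log2 intensity of each member on each of the 14 arrays, by group, with the group mean ± SD beside the points and the background level of 4.67 dotted. Every member is higher on all TLR4-/- I/R arrays than on all TLR4-/- sham arrays, and Oas3 is the member whose WT I/R and WT sham arrays meet, at 4.79.

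Oasl2, the ubiquitin-like member with synthetase activity, measured 9.39, 9.02 and 8.94 on the TLR4-/- I/R arrays B, C and D, against 5.52, 5.52 and 4.99 on the TLR4-/- sham arrays A, B and D. It measured 7.89, 8.87, 8.91 and 9.11 on the WT I/R arrays A to D, against 6.56, 6.46, 5.60 and 6.24 on the WT sham arrays A to D. The I/R and sham arrays did not overlap in either genotype, and WT I/R array A was the lowest of its group. The change was 3.77 ± 0.28 on the log2 scale in TLR4-/- (SE, limma adjusted p = 2.26e-07) and 2.48 ± 0.25 in WT (limma adjusted p = 2.58e-06).

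Oas1a is a mouse counterpart of the human synthetase OAS1. Its values were 7.86, 7.41 and 7.41 on the TLR4-/- I/R arrays, against 4.74, 5.11 and 4.87 on the TLR4-/- sham arrays. In WT it gave 6.58, 7.47, 7.27 and 7.81 after I/R, against 6.05, 6.05, 5.62 and 5.45 after sham. No I/R array reached down to a sham array of its genotype, and the sham arrays of TLR4-/- all lay below those of WT. Oas1a changed by 2.66 ± 0.25 in TLR4-/- (SE, 6.30-fold, limma adjusted p = 2.21e-06) and by 1.49 ± 0.21 in WT (2.81-fold, limma adjusted p = 0.000173).

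Oas2, an enzyme with a pair of synthetase units, stood at 7.14, 7.08 and 7.72 on the TLR4-/- I/R arrays, against 5.47, 5.47 and 5.52 on the TLR4-/- sham arrays. On the WT arrays it stood at 6.68, 7.34, 7.23 and 7.61 after I/R, against 5.06, 5.82, 6.16 and 5.81 after sham. The TLR4-/- sham arrays had an SD of 0.03, and the WT sham arrays an SD of 0.46. The change was 1.83 ± 0.25 in TLR4-/- (SE, 3.56-fold, limma adjusted p = 0.000160) and 1.50 ± 0.22 in WT (2.84-fold, limma adjusted p = 0.000198), with no overlap in either genotype.

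Oasl1, the inactive member that restrains Irf7 translation in mice, had 7.43, 7.67 and 7.95 in TLR4-/- I/R, against 6.16, 6.33 and 6.26 in TLR4-/- sham. The WT I/R arrays had 6.50, 7.37, 7.65 and 7.56, against 6.03, 6.19, 6.30 and 6.11 on the WT sham arrays. WT I/R array A again lay lowest of its group, only just above the highest WT sham array. Oasl1 changed by 1.44 ± 0.23 in TLR4-/- (SE, 2.71-fold, limma adjusted p = 0.000555) and by 1.11 ± 0.19 in WT (2.16-fold, limma adjusted p = 0.00114).

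Oas3, the largest family protein, which in human cells binds long double-stranded RNA, was measured close to background. TLR4-/- arrays gave 5.53, 5.81 and 5.03 after I/R, against 4.62, 4.75 and 4.72 after sham. WT arrays gave 4.79, 5.09, 5.31 and 5.26 after I/R, against 4.36, 4.44, 4.79 and 4.76 after sham. The WT groups overlapped, since WT I/R array A lay just below WT sham array C, and the mean of WT sham, 4.59, was under the background level. Oas3 changed by 0.76 ± 0.19 in TLR4-/- (SE, limma adjusted p = 0.0171) and by 0.53 ± 0.16 in WT (limma adjusted p = 0.0491). Its call in TLR4-/- was lost without TLR4-/- I/R array B (limma adjusted p = 0.0519) or C (0.0993), or without TLR4-/- sham array A (0.0720). In WT the call was lost without WT I/R array B (limma adjusted p = 0.0825), C (0.143) or D (0.139), and without WT sham array A (0.117), B (0.119) or D (0.0516). It was also lost without TLR4-/- I/R array B (limma adjusted p = 0.0542) or TLR4-/- sham array A (0.0609), B (0.0602) or D (0.0615), arrays that enter the WT comparison only through the shared estimate of spread.

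**Figure D2:**
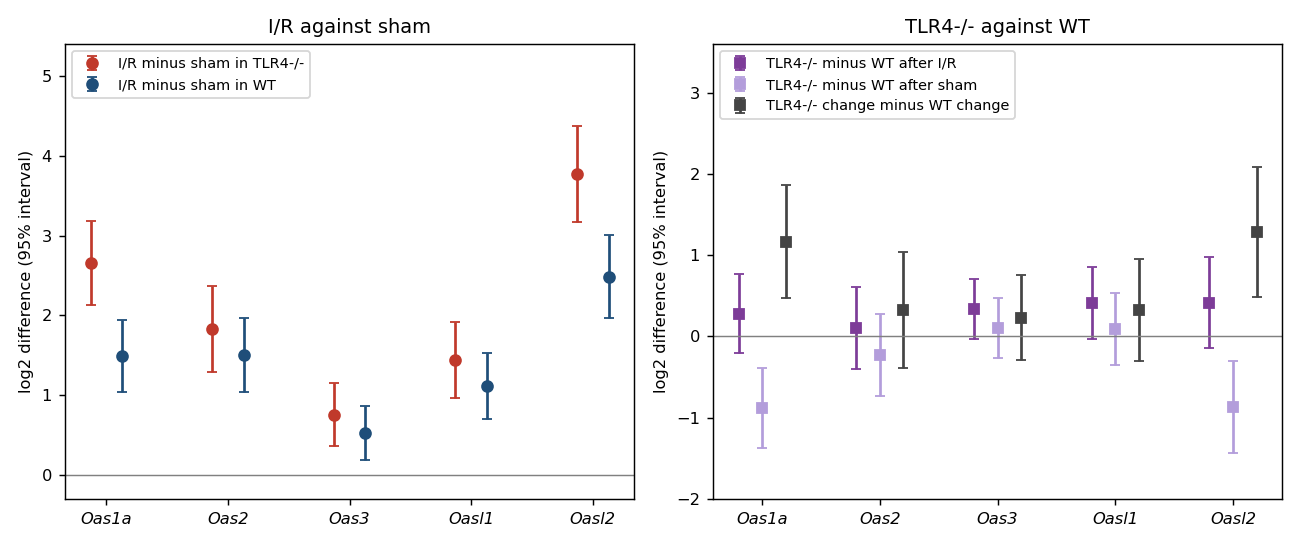
Log2 change of each member, I/R minus sham, in TLR4-/- and WT, and TLR4-/- minus WT after I/R, after sham and for the change itself, with 95% confidence intervals from the limma model. All changes after I/R are above 0, and the genotype intervals clear of 0 are those of Oas1a and Oasl2 after sham and for the change, before adjustment over all genes.

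Part of the monocyte marker list was also higher after I/R. Of 10 measured, 5 were called higher after I/R in TLR4-/-, where 5.04% of all genes were, and 7 in WT, where 6.15% were. Their mean over the list was 6.11 to 6.27 on TLR4-/- I/R arrays, against 4.77 to 4.96 on TLR4-/- sham arrays. In WT that mean was 6.18 to 6.78 after I/R, against 4.96 to 5.15 after sham. After I/R the median difference between genotypes, TLR4-/- minus WT, was -0.26 for these markers and 0.34 for the members. The 5 called in TLR4-/- were all called in WT too. Plac8 changed by 3.52 in TLR4-/- and 2.59 in WT, Vim by 2.91 and 3.20, and Ms4a4c by 2.89 and 2.66. S100a4 changed by 1.48 in TLR4-/- and 1.27 in WT, and Cd44 by 1.35 and 1.59. Chil3 and Itgal were called in WT alone, and Vcan and F13a1 in neither genotype. Ccr2, the chemokine receptor of inflammatory monocytes, was not called in either genotype, with a change of -0.22 in TLR4-/- (limma adjusted p = 0.501) and 0.41 in WT (0.0763). Microglia markers fell in part, with 5 of 9 called lower in TLR4-/- and 7 of 9 in WT. Of all 19938 genes, 624 were called lower in TLR4-/- and 724 in WT. Endothelial markers had 1 call lower, Pecam1, of 6 in TLR4-/- and 2 higher and 1 lower in WT, and among 6 astrocyte markers Slc1a3 was called lower in both. Cxcr2 was the 1 neutrophil marker called higher, in WT. The part of other cell types in the OAS and OASL changes was not tested.

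Without Toll-like receptor 4, sham microglia had less Oas1a and Oasl2 on every array, but no member passed the test across all genes. Oas1a averaged 4.91 ± 0.19 in TLR4-/- sham and 5.79 ± 0.30 in WT sham (SD, n = 3 and 4), a difference of -0.89 with a 95% interval of -1.38 to -0.39 (limma unadjusted p = 0.00147, adjusted p = 0.734). Oasl2 averaged 5.34 ± 0.30 in TLR4-/- sham and 6.21 ± 0.43 in WT sham (SD, n = 3 and 4), a difference of -0.87 with an interval of -1.43 to -0.31 (limma unadjusted p = 0.00476, adjusted p = 0.920). For both genes all 3 TLR4-/- sham arrays lay below all 4 WT sham arrays, and the arrays of these groups failed to overlap, in either direction, for 5.5% of all genes. Oas2 differed by -0.23 (95% interval -0.73 to 0.28), Oas3 by 0.11 (-0.26 to 0.48) and Oasl1 by 0.09 (-0.36 to 0.54). None of the 5 members was called, where 0.00502% of all genes, the single gene Mid1, were. At an unadjusted p under 0.05 stood 2 of the 5 members and 5.24% of all genes. Over the alternatives tried, the adjusted p ran from 0.239 to 0.999 for Oas1a and from 0.196 to 0.999 for Oasl2.

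After I/R all 5 members averaged higher in TLR4-/- than in WT, by amounts within the spread of the arrays. The differences were 0.42 for Oasl2 (95% interval -0.15 to 0.98), 0.41 for Oasl1 (-0.03 to 0.86), 0.34 for Oas3 (-0.03 to 0.71), 0.28 for Oas1a (-0.21 to 0.77) and 0.10 for Oas2 (-0.40 to 0.60). TLR4-/- I/R and WT I/R arrays overlapped for every member, and for 9.34% of all genes they did not overlap. None was called (limma adjusted p 0.613 to 0.909), where 0.0201% of all genes, 4 genes, were. None had an unadjusted p under 0.05 either, against 8.47% of all genes. WT I/R array A moved all of these values: without it they were 0.15 for Oasl2, 0.16 for Oasl1, 0.23 for Oas3, 0.05 for Oas1a and -0.08 for Oas2. Oas2 was below 0 under 4 of the alternatives, with a lowest value of -0.10 without TLR4-/- I/R array D.

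The change after I/R was compared between genotypes directly, as the TLR4-/- change minus the WT change. Oasl2 gave 1.29 ± 0.38 (SE, 95% interval 0.49 to 2.08, limma unadjusted p = 0.00344, adjusted p = 1) and Oas1a gave 1.17 ± 0.33 (0.47 to 1.86, limma unadjusted p = 0.00255, adjusted p = 1). The other members gave 0.33 for Oas2 (-0.39 to 1.04), 0.33 for Oasl1 (-0.31 to 0.96) and 0.23 for Oas3 (-0.29 to 0.75). No member was called and 0% of all genes were, while 2 of 5 members and 3.82% of all genes had an unadjusted p under 0.05. For Oas1a and Oasl2 this value contains the lower TLR4-/- sham levels given above, since both comparisons use the same sham arrays. Over the alternatives the value stayed between 0.93 and 1.34 for Oas1a (adjusted p 0.600 to 1) and between 1.02 and 1.58 for Oasl2 (adjusted p 0.414 to 1). It ran from -0.03 to 0.54 for Oas2, from 0.07 to 0.45 for Oasl1 and from 0.05 to 0.44 for Oas3, the lowest being without WT sham array C and TLR4-/- I/R array D together for Oas2, without WT I/R array A for Oasl1 and without TLR4-/- I/R array C for Oas3.

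The order of the 4 group means differed among members only in which sham group was lower. By means, Oas1a, Oas2 and Oasl2 ran from TLR4-/- I/R through WT I/R and WT sham down to TLR4-/- sham. Oas3 and Oasl1 ran from TLR4-/- I/R through WT I/R and TLR4-/- sham down to WT sham. For Oas2, Oas3 and Oasl1 the sham arrays of the genotypes overlapped. TLR4-/- sham minus WT sham was -0.23 for Oas2, 0.11 for Oas3 and 0.09 for Oasl1 (limma adjusted p 0.952, 0.973 and 0.98). Which order these members follow was therefore not settled by the test. Within a surgery, neighbours did not differ by the test, and WT I/R and WT sham, neighbours for Oas1a, Oas2 and Oasl2, did. For Oas3 the middle neighbours, WT I/R and TLR4-/- sham, differed by 0.42 and were not called (limma adjusted p = 0.129). For Oasl1 they differed by 1.02 (limma adjusted p = 0.00416), in a comparison where 7.35% of all genes were called higher.

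Within groups the members did not move as 1 block. WT I/R array A was the lowest of its group for 5 of 5 members, by 0.32 (Oas3) to 0.81 (Oasl2) below the group mean, and it was also lowest for the mean of the 13 measured interferon-induced genes outside the family, 7.81 against 8.52 to 8.84 on arrays B to D. Without it the WT change was 2.75 for Oasl2, 1.72 for Oas1a, 1.68 for Oas2, 1.37 for Oasl1 and 0.63 for Oas3. On WT sham array A, Oas2 lay 0.65 below its group mean while Oasl2 lay 0.35 above. WT sham array C had the opposite arrangement, with Oas2 0.45 above its mean and Oasl2 0.62 below. The mean over the 5 members still varied little among WT sham arrays, from 5.61 to 5.79. Across all 14 arrays every pair of members correlated at 0.74 to 0.98, a description that the 4 shared groups dominate. After the group means were taken out, Oas1a and Oasl2 correlated at 0.80 and Oas2 and Oasl1 at 0.72, against 0.02 for Oas2 and Oasl2. The remaining pairs lay between these, from 0.16 for Oas3 and Oasl2 to 0.51 for Oas1a and Oasl1.

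**Figure D3:**
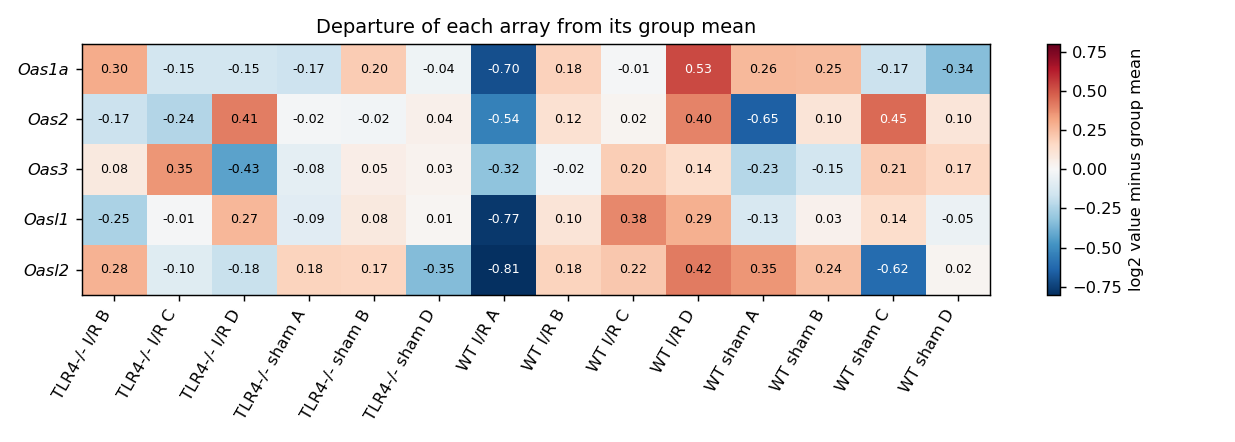
Deviation of each member on each array from its group mean, in log2 units, with red above and blue below the mean. The WT I/R array A column is below the mean for all 5 members, and WT sham arrays A and C show Oas2 and Oasl2 on opposite sides.

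The rest of the mouse Oas1 group showed no call. Of the 7 other family genes, 6 had a row, none averaged above background over all arrays, and 0 were called in either genotype. Their median change was 0.06 in TLR4-/- and 0.03 in WT. Oas1b, the flavivirus resistance gene that RefSeq lists as a transcribed pseudogene in this strain, changed by 0.60 in TLR4-/- (limma adjusted p = 0.104) and by 0.20 in WT (0.573). Oas1c changed by 0.22 in TLR4-/- and 0.35 in WT, neither called, although its promoter window also held 2 ISRE core matches, on the opposite strand. Of the 4 other family genes with a promoter window, 2 held the core.

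By RefSeq gene order the members form 2 neighbourhoods on chromosome 5, Oasl2 beside Oasl1 and a longer Oas cluster that opens with Oas2 and Oas3 and has Oas1a near its far end. Inside the Oas cluster, calls fell on Oas2, Oas3 and Oas1a, with Oas1e, Oas1c, Oas1b, Oas1f and Oas1h between them not called. Oas1g, the near-identical copy of Oas1a, had no row of its own. Next to the Oasl pair, 4930519G04Rik changed by 0.02 in TLR4-/- and -0.08 in WT, and 2210016L21Rik changed by 0.21 in both. One gene further out, 2610524H06Rik was called higher in both genotypes, by 0.90 ± 0.17 in TLR4-/- (SE, limma adjusted p = 0.00245) and 1.16 ± 0.15 in WT (limma adjusted p = 3.66e-05). Sppl3, a protease of the Golgi, fell by 0.55 in TLR4-/- (limma adjusted p = 0.0339) and was not called in WT, at -0.25 (limma adjusted p = 0.290).

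**Figure D4:**
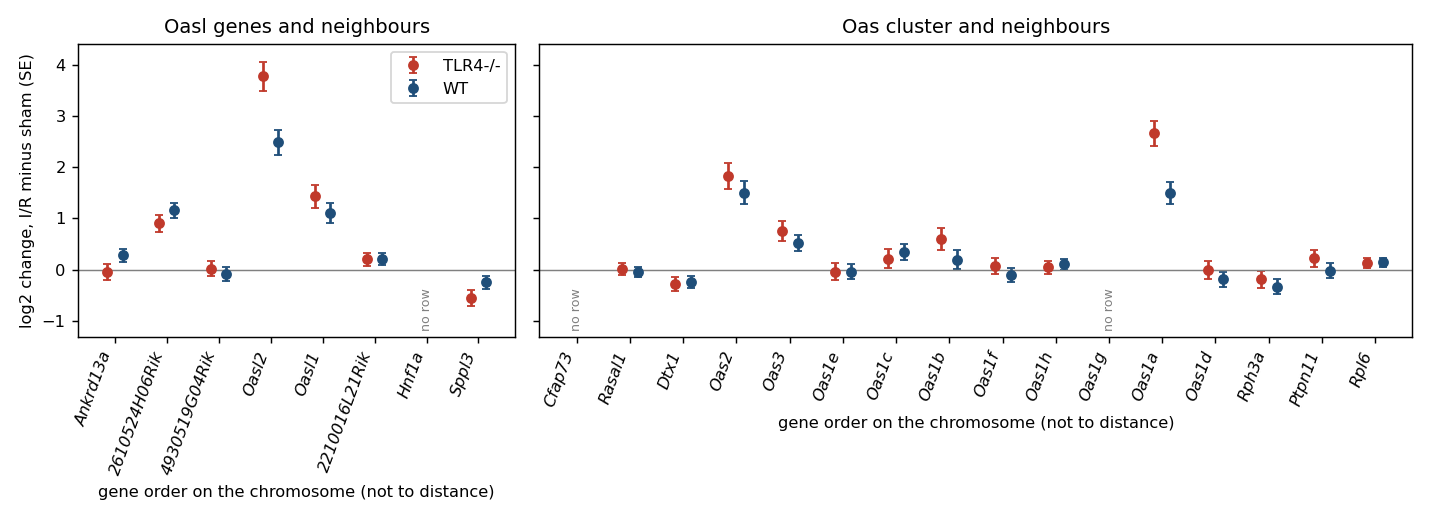
Log2 change after I/R (mean ± SE) of the members and their neighbours in chromosome order, TLR4-/- in red and WT in blue, with genes that had no row marked. Apart from 2610524H06Rik, whose change exceeds that of Oas3 in both genotypes and that of Oasl1 in WT, the members lie above their neighbours.

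The list of oligoadenylate turnover genes held no call. Pde12 and Akap7, which degrade oligoadenylates, changed by 0.17 and -0.39 in TLR4-/- and by 0.28 and -0.32 in WT, and Abce1, a ribosome recycling factor that the same list holds, changed by 0.04 in TLR4-/- and 0.24 in WT. None of the 3 passed the test in either genotype.

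Several other sensors of nucleic acids rose as well. Of 10 sensors of RNA or DNA and their adaptors, 7 were called higher and 1 lower in TLR4-/- and 6 higher and 1 lower in WT. Of all genes, 5.04% were called higher in TLR4-/- and 6.15% in WT. The median change of the 10 was 0.90 in TLR4-/- and 0.56 in WT. Zbp1, which binds Z-form RNA and DNA, changed by 3.66 in TLR4-/- (limma adjusted p = 2.15e-07) and 2.84 in WT. Dhx58, a helicase regulator of RNA sensing, changed by 2.13 in TLR4-/- and 1.33 in WT, and Eif2ak2, the kinase PKR, by 1.59 in TLR4-/- and 1.26 in WT. Ifih1, the sensor MDA5, rose by 1.34 in TLR4-/- and 0.85 in WT, and Ddx58, the sensor RIG-I, by 1.12 in TLR4-/- and 0.69 in WT. Cgas, a DNA sensor, was called in TLR4-/- at 0.67 (limma adjusted p = 0.0274) and not in WT at 0.13 (limma adjusted p = 0.663), and the difference between these changes was not called (limma adjusted p = 1). Sting1, its adaptor, was the gene called lower, with changes of -0.50 in TLR4-/- and -0.44 in WT. Adar, which edits double-stranded RNA, changed by 0.52 in TLR4-/- and 0.43 in WT, close to Oas3 in WT. Tlr3, the endosomal receptor for double-stranded RNA, was not called, at -0.02 in TLR4-/- and -0.12 in WT, nor was Mavs, the adaptor of Ifih1 and Ddx58, at -0.38 in TLR4-/- and -0.25 in WT.

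In the interferon pathway upstream of these promoters, 2 of 11 measured genes were called higher in each genotype. Over all genes, 5.04% were called higher in TLR4-/- and 6.15% in WT. The median change of the 11 was -0.02 in TLR4-/- and 0.03 in WT, beside -0.03 and -0.06 over all genes. Irf7, the factor that amplifies interferon responses, rose by 2.69 in TLR4-/- (limma adjusted p = 9.81e-06) and 1.92 in WT (5.48e-05). Stat2, a subunit of the factor that binds the ISRE, rose by 1.45 in TLR4-/- and 1.05 in WT. Ifnb1, which encodes interferon beta, averaged 3.71 in TLR4-/- I/R and 2.98 in TLR4-/- sham, and 3.43 in WT I/R and 2.90 in WT sham, all below background. Ifnar1, Ifnar2, Jak1, Tyk2, Irf9, Irf1, Irf3 and Irf8 were not called in either genotype.

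Interferon-induced genes outside the family moved in the same way. All 13 measured were called higher after I/R in each genotype, where 5.04% of all genes in TLR4-/- and 6.15% in WT were. The median change of the 13 was 3.28 in TLR4-/- and 1.77 in WT. Of the members, only Oasl2 exceeded that median, at 3.77 in TLR4-/- and 2.48 in WT. After sham, 11 of the 13 averaged lower in TLR4-/- than in WT, with a median difference of -0.60 and 8 at an unadjusted p under 0.05, and none was called. In that comparison 5.24% of all genes had an unadjusted p under 0.05. Among the 13, Rtp4 differed most after sham, by -1.65 (limma adjusted p = 0.097). Ifit3, an RNA-binding antiviral protein, differed by -1.42 (limma adjusted p = 0.15), against -0.89 for Oas1a and -0.87 for Oasl2. The TLR4-/- change minus the WT change was above 0 for 11 of the 13, with a median of 1.30, close to the 1.29 of Oasl2. It contains the lower TLR4-/- sham levels just given, since both comparisons use the same sham arrays.

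**Figure D5:**
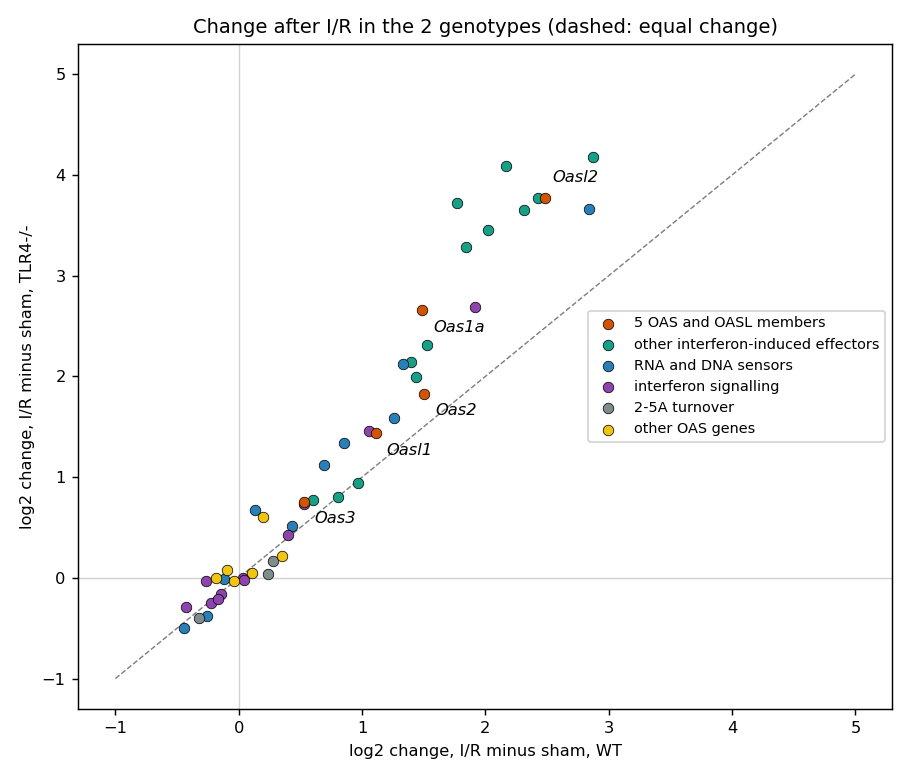
Log2 change after I/R in TLR4-/- (vertical axis) against WT (horizontal axis) for the 5 members and the genes of the pathway lists, 1 colour per list, with a dashed line of equal change. Oas1a and Oasl2 lie well above the line, and Oas2, Oas3 and Oasl1 lie nearer to it.

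Among 12528 other genes above background, those most like the family over the 14 arrays were mostly interferon-induced. The family profile, the mean of the members after each was centred on its own mean, correlated with Usp18 at 0.989, Slfn5 at 0.987, Xaf1 at 0.987, Ifit2 at 0.986 and Ifit3b at 0.984. Ifit1 followed at 0.983, Zbp1 at 0.980, Mx1 at 0.977, Cox6a2 at 0.976 and Rsad2 at 0.976. Cox6a2, a cytochrome oxidase subunit known from heart and muscle, changed by 1.52 in TLR4-/- and 1.26 in WT. The single closest gene differed by member: Ifit2 for Oasl2 (0.993), Ifit3 for Oas1a (0.987), Acod1 for Oasl1 (0.964), Ifi207 for Oas2 (0.960) and Mgst2 for Oas3 (0.904). Acod1 makes itaconate, and Mgst2 is a microsomal glutathione transferase. These correlations describe 14 arrays in 4 groups and follow the change after I/R that all of these genes share.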

How the data were processed

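Per the submitters' processing notes, the authors processed the Affymetrix Mouse Gene 1.0 ST arrays with RMA in oligo; the deposited values are log2 intensities, used as deposited. Versions, filters and scan batches (not given in the sources used here) could not be modelled. Of 35556 rows, 21789 had 1 symbol in the platform annotation, 1621 several and 12146 none. The brightest row stood for each of 19938 genes (999 had several rows). R 4.3.3 and limma 3.58.1 (lmFit, eBayes) fitted 1 mean per group over 14 arrays with Benjamini-Hochberg adjustment over all genes and calls at adjusted p under 0.05. The fit was tested on simulated data. The number of arrays limits precision. All 5 members are named in each comparison, plus the 10 genes most correlated with their mean profile, the single most correlated gene per member, and any called or defining gene of the lists. Members and lists were chosen with earlier results of these data known. Alternatives changed scaling, model, genes tested and arrays. Promoters are RefSeq's (GRCm38.p6), and 21698 rows matched its gene table. No protein sequence was used here. Some genes of the lists are not reported here.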

Additional observations from a re-analysis of the deposited data

How the results depend on the processing

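The counts of members called kept their values under all alternatives except where Oas3 lost its call on leaving out single arrays, as given above. In TLR4-/- and in WT, leaving out 1 array left 4 to 5 members called after I/R. No result changed direction among the calls. Centring each array on its median moved the split of all calls to 71.3% higher in TLR4-/- (61.7% as deposited) and 76.8% higher in WT (62.9% as deposited), and all 5 members stayed called higher. The count of all genes called between genotypes was small and moved with the setting. After sham it was 1, against 0 when the model held the compared groups alone, 2 with trend and robust variance, 2 with array weights, 2 with the replicate block, 10 without WT sham array C and TLR4-/- I/R array D together, and 0 to 10 on leaving out 1 array. After I/R it was 4, against 0 with only the compared groups, 7 with array weights, 1 without dim genes, 0 with the replicate block, 0 without both of those arrays, and 0 to 5 on leaving out 1 array. For the TLR4-/- change after I/R it was 1628, and 970 to 1888 on leaving out 1 array, 970 without TLR4-/- sham array A and 1071 without TLR4-/- I/R array C; for the difference of changes it was 0, and 0 to 1, the 1 without WT sham array C. The causes were not tested. Between arrays of the same letter, deviations from the group means correlated at -0.10 to 0.14 over all genes. Arrays of different letters were not compared in this way, so whether the letters pair arrays is not settled. The replicate block changed no member's call. Signal near background limits Oas3, and Oas1a shares sequence with Oas1g.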
